A study of Macaca mulatta with 2 samples.

Results

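The epidermal growth factor (EGF) family was examined in 2 primary Sertoli cell cultures of rhesus macaque, 1 pubertal and 1 infant, each hybridised to 1 one-colour human oligonucleotide array. Its 10 members here were the gene spots that the array names EGFR, ERBB2, ERBB3, ERBB4, AREG, EREG, HBEGF, BTC, TGFA and NRG1, out of 21509 gene symbols on the array, and they were covered by 29 of 35019 probes. The pubertal culture came from testes of males aged 18 to 22 months in which puberty had been induced by gonadotropin-releasing hormone, delivered at 0.15 µg/min in pulses of 2 min every 3 h over 4 to 5 weeks. The infant culture came from testes of males under 3 months old. Both cultures had been exposed to testosterone at 100 nM together with follicle-stimulating hormone (FSH) at 5 ng/ml for 12 h, so no culture without hormone is part of the comparison. How many animals were behind each culture was not stated. With 1 array per group no difference below carries a test, and animal, culture, age and the pubertal induction cannot be told apart.

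EGF-like ligands are made as membrane-bound precursors that proteases of the ADAM family shed from the cell surface. The freed ligand joins receptors of the ERBB family into pairs, whose kinase activity starts the RAS-ERK and PI3K-AKT cascades. Amphiregulin, epiregulin and betacellulin are known from the rodent ovary as ligands that follicle cells make after a gonadotropin signal and that pass this signal on through EGFR. Sertoli cells, which nurse the germ cells in the seminiferous tubule, carry the FSH receptor and are the corresponding target of FSH in the testis.

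Signals are processed intensities of single spots, given with the error that the scanner software attached to each spot. Differences are on the log2 scale, pubertal minus infant, after each array was set to the 75th percentile of its gene spots (407 intensity units pubertal and 382 infant). The error of a difference comes from the same software and covers the spots of these 2 arrays, not the animal or the culture. Among 78 probes printed several times and bright on both arrays, spots of the same probe had a median SD of 0.09 on each array. A probe counted as measured where the deposited flag put it well above background, and a gene's value is the average over those of its probes that were measured on both arrays. Of the 14243 genes measured on both arrays, 7.32% passed 2-fold upward on the pubertal array and 6.32% passed it downward, and the median difference was -0.06. In these bulk cultures fewer cells of a type and less RNA per cell cannot be told apart. Levels were not compared between probes, since monkey RNA binds each human probe to an unknown degree. The exception is the sums of marker signals by cell type, with the level of UTF1 beside them, which this limit also affects.

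What was measured depends on the probe, and the probes behind the main differences are shown here 5′ to 3′ as the array lists them. For probes that may lie outside the coding sequence the first 30 of 60 bases are given. The amphiregulin probe, the only one for that gene, and both measured EGFR probes underlie the 2 gene differences past 2-fold.
AREG (NM_001657): tgagtcggtcctctttccagtggatcataa
EGFR, transcript of the full receptor (NM_005228): tatcaaggaagaaatggttcagaaaatatt
EGFR, shorter transcript (NM_201283): atgggaaatcagtgttttagagagagaact
EREG, measured on both arrays (NM_001432): tgttcatatgggagaagggggagtaatgac
The other epiregulin probe is shown whole because, in the human protein, it reads the end of the EGF-like domain. Capitals mark the 2 cysteine codons in its single open reading frame, part of the cysteine pattern that holds the EGF fold together.
EREG, not well above background (NM_001432): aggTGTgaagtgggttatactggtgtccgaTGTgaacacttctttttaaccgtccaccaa
One of the 2 heparin-binding EGF probes, which lies in the human coding sequence, is shown because both probes of that gene had nearly the same difference.
HBEGF (NM_001945): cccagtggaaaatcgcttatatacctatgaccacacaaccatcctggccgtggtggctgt
A pair of ERBB3 probes shares 59 of 60 bases, and the capitals mark the bases that both printed stretches hold. Both read the same site and are not independent.
ERBB3, shifted by 1 base (NM_001005915): GCTGGAGTCAGAGCTGGATCTGTTAACCGt
ERBB3, overlapping partner (NM_001005915): gGCTGGAGTCAGAGCTGGATCTGTTAACCG
All 29 probes were 60 bases long with a GC content of 35 to 55%, each was printed once, and none lay in an area where neighbouring spots deviated together, called disturbed here. The files list their genome positions as unmapped, so no coordinates are given.

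Of the 10 genes, 9 were measured on both arrays, against 66.2% of all gene symbols, and TGFA was measured on neither. Amphiregulin and EGFR passed 2-fold downward on the pubertal array, 2 of 9 against the 6.32% of all genes, and none of the 9 was 2-fold higher, against 7.32%. With numbers this small these shares describe the 9 genes and do not set the family apart. Epiregulin and heparin-binding EGF also had negative differences, and the other 3 receptors, betacellulin and neuregulin 1 had positive ones. The 9 differences ran between -1.81 and 0.69, with a median of 0.16.

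**Figure D1:**
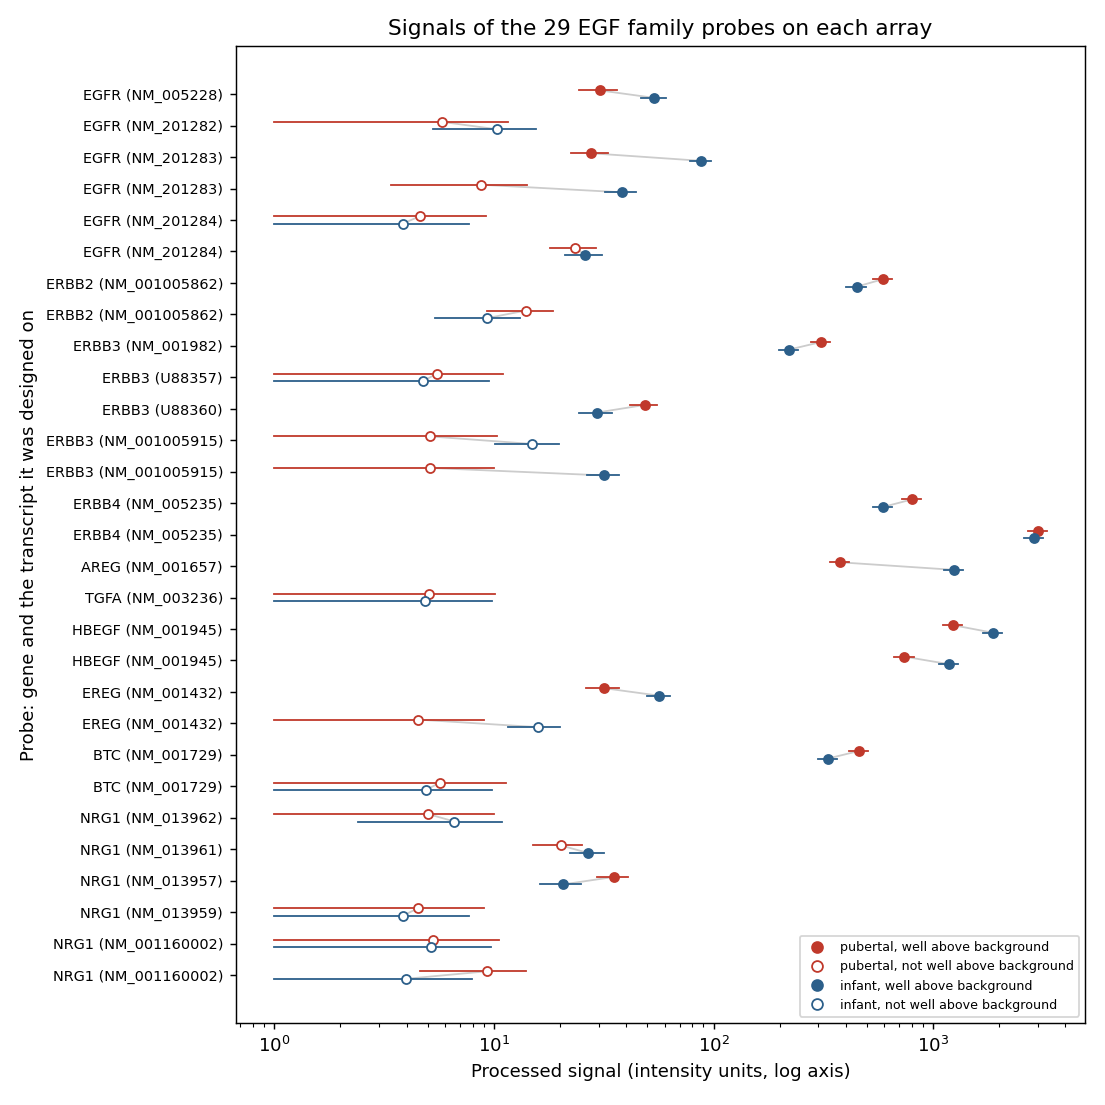
Processed signal (intensity units, log axis) of each of the 29 probes, 1 row per probe with the pubertal value above the infant value. Filled points were well above background, open points were not, and bars are the scanner software's error, drawn no lower than 1 unit. AREG, HBEGF and the measured EGFR probes lie further right on the infant array, and 12 probes have both points open.

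Amphiregulin, a ligand of EGFR, had the largest difference in the family. Its probe read 376 ± 38 units on the pubertal array, against 1239 ± 124 units on the infant array, where ± is the software's spot error. Both signals were far above background, and the infant value lay well beyond the error of the pubertal one. The difference was -1.81 ± 0.20, or 3.51-fold lower on the pubertal array, and 1.15% of the genes measured on both arrays had a more negative one. It rests on 1 probe, printed once on each array.

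Epiregulin, which activates EGFR and ERBB4, was dim on both arrays. The measured probe read 31.7 ± 5.5 units on the pubertal and 56.5 ± 6.8 units on the infant array. The difference was -0.92 ± 0.31 (1.90-fold lower), just short of 2-fold. The probe at the end of the EGF-like domain gave no signal well above background, at 4.51 units pubertal and 15.8 units infant. With normexp, another background correction, the epiregulin difference was -0.43. The correction adds an offset of 50 units to each signal, which by itself makes the differences of such dim probes smaller.

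Heparin-binding EGF, a ligand of EGFR and ERBB4, was measured by 2 probes that share no run of 20 bases, and both were lower on the pubertal array. The probe shown above read 1235 ± 124 units on the pubertal and 1873 ± 187 units on the infant array. The other read 740 ± 74 units on the pubertal and 1182 ± 118 units on the infant array. Their differences were -0.69 and -0.76, closer to each other than the error of either, and the gene's difference was -0.73 ± 0.14 (1.66-fold lower). It remained under 2-fold, and 12.0% of all genes had a more negative difference.

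Betacellulin, also a ligand of EGFR and ERBB4, was slightly brighter on the pubertal array. Its measured probe read 458 ± 46 units pubertal and 331 ± 33 units infant, a difference of 0.38 ± 0.21 (1.30-fold higher). A difference of this size or more was held by 22.5% of all genes. The other betacellulin probe stayed near background on both arrays, at 5.68 units pubertal and 4.90 units infant. The macaque gene table (T2T-MMU8v2.0) lists BTC, AREG, EREG and EPGN as consecutive protein-coding genes in that order. Along this cluster BTC had a positive difference, AREG and EREG negative ones, and the epigen gene EPGN was not measured on either array.

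The remaining ligands gave little signal. The single probe of transforming growth factor alpha read 5.07 units on the pubertal and 4.87 units on the infant array, both not well above background, so no fold is given. A probe at background on these human arrays does not show that the monkey transcript is absent. Neuregulin 1, a ligand of ERBB3 and ERBB4, had 6 probes on several transcripts, and 1 of them was measured on both arrays. That probe (NM_013957) read 35.2 ± 5.7 units pubertal and 20.6 ± 4.4 units infant, a difference of 0.69 ± 0.38. Another neuregulin probe (NM_013961) pointed the other way, at 20.1 units pubertal, not well above background, and 26.9 units infant. The difference of that probe was -0.51 ± 0.44, little more than the software's error. Over all 6 probes the neuregulin difference was 0.15, so its probes gave no common direction at these signals.

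Among the receptors, EGFR was lower on the pubertal array. It is the receptor of amphiregulin, epiregulin, heparin-binding EGF, betacellulin and transforming growth factor alpha. The probe for the full receptor (NM_005228) read 30.3 ± 6.0 units pubertal and 53.8 ± 7.1 units infant, a difference of -0.92 ± 0.34. A probe for a shorter transcript (NM_201283), which in human encodes a soluble receptor without the kinase, read 27.8 ± 5.3 units pubertal and 87.7 ± 9.6 units infant, a difference of -1.75 ± 0.32. The mean of both was -1.33 ± 0.23 (2.52-fold lower), and 2.98% of all genes had a more negative difference. The probe for the full receptor alone was 1.89-fold lower, so the 2-fold call rests on the shorter transcript.

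The remaining 4 EGFR probes were dim, and none was measured on both arrays. A second probe on NM_201283 read 8.77 units pubertal and 38.2 units infant, and it was well above background on the infant array alone (at least 1.95-fold lower). A pair of probes on NM_201284 shares 59 of 60 bases. One of this pair was measured on the infant array alone, at 23.5 units pubertal and 26.1 units infant. Its difference of -0.24 ± 0.44 was within the software's error. The partner was measured on neither array, at 4.60 units pubertal and 3.84 units infant. The probe on NM_201282 was measured on neither array, at 5.79 units pubertal and 10.4 units infant. No EGFR probe read more than 87.7 units on either array. With normexp correction, its offset of 50 units included, the EGFR difference was -0.62 and no longer 2-fold.

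ERBB2, which binds no ligand and serves as the partner of the other receptors, read 592 ± 59 units pubertal and 448 ± 45 units infant. Its difference was 0.31 ± 0.20 (1.24-fold higher), and 25.7% of all genes had one of this size or more. A second ERBB2 probe gave no signal well above background, at 13.9 units pubertal and 9.31 units infant.

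ERBB3, a neuregulin receptor with little kinase activity of its own, differed by 0.51 ± 0.19 (1.42-fold higher on the pubertal array) over 2 measured probes. The probe for the full receptor (NM_001982) read 308 ± 31 units pubertal and 221 ± 22 units infant. A probe on another ERBB3 transcript (U88360) read 48.5 ± 6.7 units pubertal and 29.5 ± 5.0 units infant. The overlapping pair on NM_001005915, a transcript that in human encodes a short secreted form, went the other way. One of the pair read 5.10 units pubertal, not well above background, and 31.8 ± 5.2 units infant (at least 1.62-fold lower). Its partner, shifted by 1 base, read 5.14 units pubertal and 15.0 units infant, neither well above background. The pair's differences, -2.73 ± 1.41 and -1.63 ± 1.52, were thus opposite in sign to those of the 2 measured probes. Their errors were large, and neither probe of the pair was measured on both arrays. The remaining probe was near background on both arrays, at 5.52 units pubertal and 4.75 units infant. Over all 5 probes without a filter on dim ones, the gene's mean difference was -0.64 in place of 0.51, and the median was 0.13. That mean holds both probes of the overlapping pair, which are not independent. With normexp correction the gene's difference was 0.23.

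ERBB4, the receptor of neuregulins that also binds betacellulin, epiregulin and heparin-binding EGF, had the smallest difference of the 4 receptors. One probe read 2995 ± 299 units pubertal and 2876 ± 288 units infant, a difference of -0.03 ± 0.20. The other probe read 803 ± 80 units pubertal and 593 ± 59 units infant, a difference of 0.35 ± 0.20. Their mean was 0.16 ± 0.14 (1.12-fold higher), little more than the software's error, and it was negative under 2 of 12 alternatives.

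**Figure D2:**
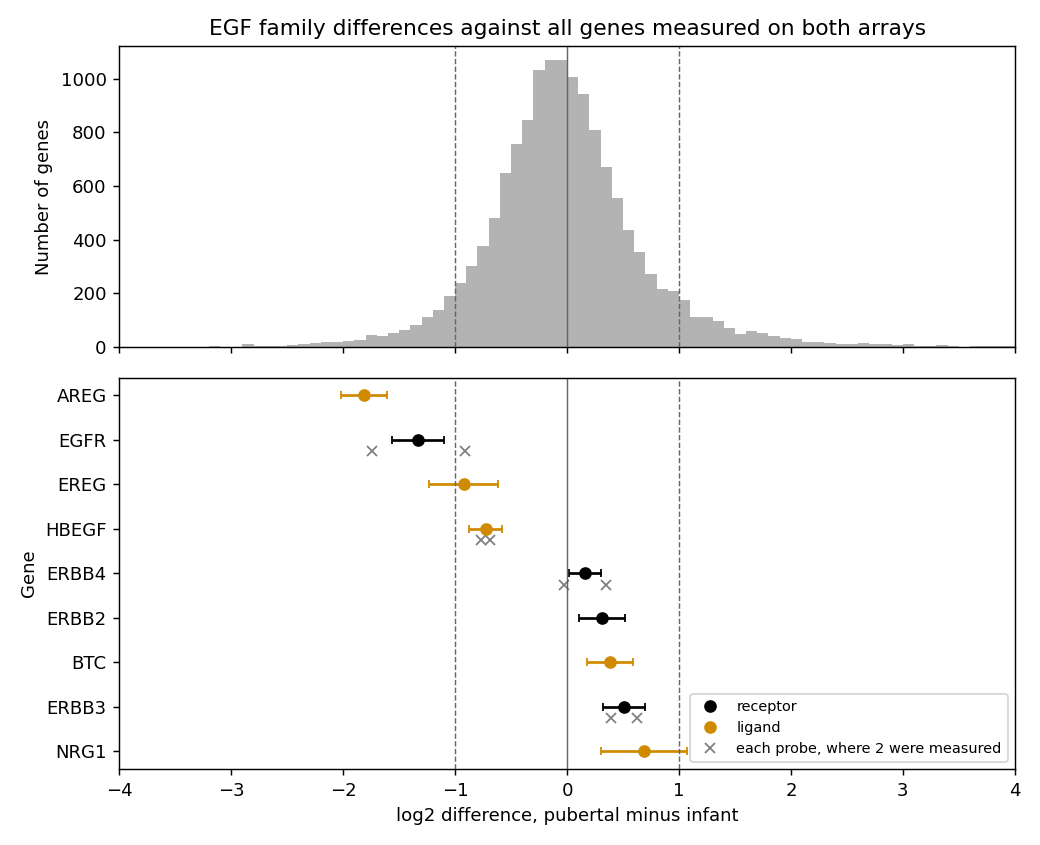
Upper panel, number of genes by log2 difference (pubertal minus infant) for the genes measured on both arrays, drawn between -4 and 4. Lower panel, the 9 measured members with the software's error as bars and crosses for single probes where 2 were measured; dashed lines mark 2-fold. AREG and EGFR lie beyond -1, EREG and HBEGF between -1 and 0, and the other 5 between 0 and 1.

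Read by role, 3 of the 5 measured ligands were on the negative side, with a median of -0.73, and 3 of the 4 receptors on the positive side, with a median of 0.24. Of the 29 probes, 13 were well above background on both arrays, 4 on the infant array alone and none on the pubertal array alone. Over all probes these single-array shares were 3.42% for infant alone and 3.86% for pubertal alone. The 4 were 2 EGFR probes, 1 ERBB3 probe and 1 NRG1 probe, and for 3 of them another probe of the same gene overlapped the same site without being measured on either array.

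Directions are relative to the other genes on the same array. As reported, 53.7% of all 2-fold calls were upward. Median scaling shifted all differences by -0.16, and upward calls then made up 37.6% (785 genes upward, 1305 downward). Scaling on 8 spike-in control probes raised every difference by 1.00, with 98.1% of the calls upward. On that scale AREG stayed negative at -0.81 and EGFR at -0.33, both under 2-fold. EREG turned to 0.07 and HBEGF to 0.27, while NRG1, ERBB3, BTC, ERBB2 and ERBB4 passed 2-fold upward at 1.68, 1.51, 1.38, 1.31 and 1.16. Of the 9 measured members, AREG and EGFR had a negative value under every alternative that measured them. The count of 2 members past 2-fold downward was 0 with spike-in scaling, where 0.864% of all genes passed downward, and 5 members passed upward, where 45.6% of all genes did. It was 3, EREG included, with median scaling, against 9.16% of all genes, and with quantile normalization, against 6.54%. It was 1 (AREG) with normexp correction, against 3.99% of all genes, and 1 with a filter at the median signal, against 6.62%. With no filter on dim probes it was again 2, AREG and EREG, against 6.91% of all genes, as it was with the median of all probes, against 6.9%. At 1.5-fold 4 members passed downward, against 16.8% of all genes, and 1 upward, against 15%, and at 4-fold none passed downward, against 0.857%.

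**Figure D3:**
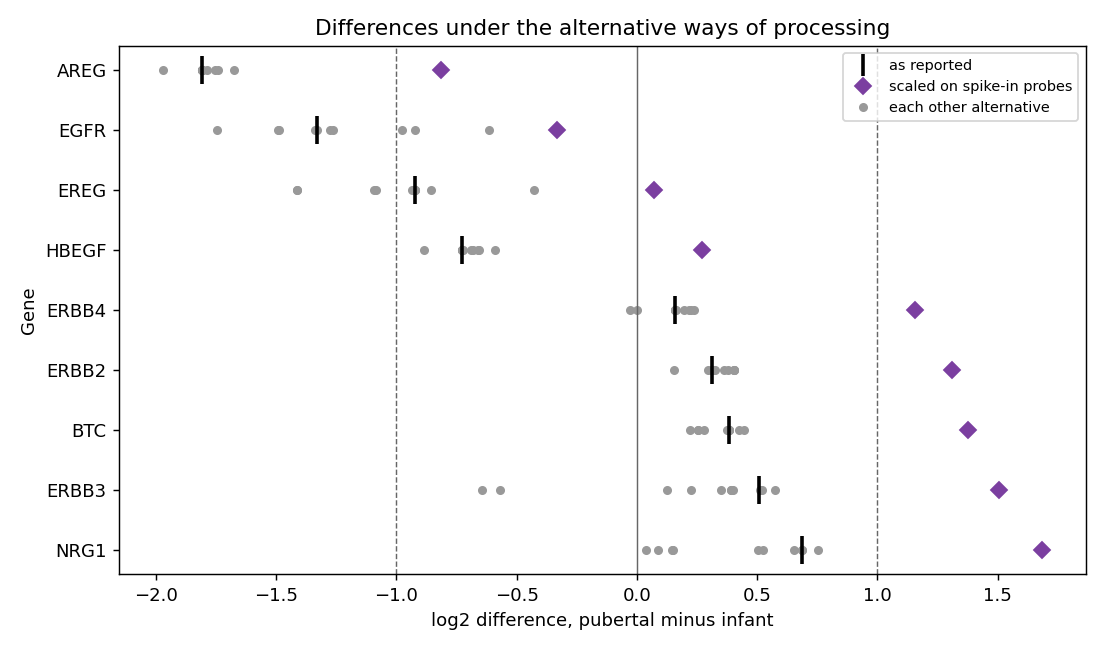
Log2 difference (pubertal minus infant) of each measured member as reported (black bar), with spike-in scaling (diamond) and under each other alternative (grey points); dashed lines mark 2-fold. AREG and EGFR stay left of 0 throughout, EREG and HBEGF cross it with spike-in scaling, and ERBB3 and ERBB4 have points on both sides.

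The genes that surround the family were described from lists chosen for the pathway. A list is given by its counts and its median, beside the median of -0.06 of all genes. The 2-fold counts stand beside 7.32% of all genes at least 2-fold higher and 6.32% lower. Every negative list median below turned positive with spike-in scaling. Genes for ligand shedding had a median of -0.84 over 7 measured genes, 2 of them at least 2-fold lower and none higher. TIMP3, an inhibitor of shedding proteases, differed by -2.49 ± 0.20 (5.61-fold lower on the pubertal array). ADAM10, a sheddase of betacellulin, differed by -1.09 ± 0.20 (2.12-fold lower). ADAM17, the main sheddase of amphiregulin and heparin-binding EGF, differed by -0.46 ± 0.14, with both probes negative, and ADAM9 by -0.88. Without the filter on dim probes the median of the shedding genes was -0.25.

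Among further ligands and relatives, 4 of 7 were measured and their median was -0.14, which turned positive with normexp correction (0.04), with the filter at the median signal (0.31) and with no filter or the median of all probes (0.16 each). Neuregulin 2 differed by -1.76 ± 0.22 (3.38-fold lower), opposite in sign to the measured neuregulin 1 probe. Neuregulin 4 differed by -0.59, and TDGF1, an EGF-like co-receptor of another pathway, by 0.65, and CD9, a membrane partner of the heparin-binding EGF precursor, by 0.31. EGF itself, EPGN and NRG3 were measured on neither array.

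Signal carriers downstream showed mostly small differences. The adaptors and RAS-ERK genes had a median of -0.39 over 15 measured genes, of which 12 were negative and 1 was at least 2-fold lower. That gene was NRAS, a RAS protein, at -1.33 ± 0.32 on a dim probe, and with normexp correction no gene of the list was 2-fold lower. The ERK-activating kinases MAP2K2 and MAP2K1 differed by -0.93 and -0.83. The adaptor GAB1 was measured only on the pubertal array, with 2 probes, at least 2.56- and 1.62-fold higher. In the PI3K-AKT branch no gene of 10 passed 2-fold, and the median was -0.04, which turned positive under several other settings, loess among them. The regulatory subunits PIK3R3 and PIK3R2 differed by 0.68 and 0.55 and PIK3R1 by -0.15, and the catalytic subunits PIK3CB and PIK3CA by -0.30 and -0.20.

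Inhibitors of the receptors and of ERK had a median of 0.04 over 21 genes, which turned negative with median scaling, with 1 gene 2-fold higher and 1 lower. LRIG1, a membrane protein that promotes the loss of ERBB receptors, was higher by 1.52 ± 0.20 (2.87-fold). CBLC, a ubiquitin ligase of the CBL family, differed by -1.53 ± 0.27 (2.90-fold lower), but no gene of the list passed 2-fold downward with normexp correction. The ERK phosphatases DUSP5 and DUSP6, which ERK signalling itself induces, differed by -0.95 and -0.54, and their relative DUSP4 by 0.35. The Sprouty inhibitors had no common sign, with SPRY1 at -0.42, SPRY2 at 0.13 and SPRY4 at 0.69. The feedback inhibitor ERRFI1 differed by -0.16, less than the software's error of 0.20. Relatives of LRIG1 and CBLC differed less, with LRIG2 at 0.04, LRIG3 at 0.23, CBL at 0.40 and CBLB at -0.16.

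Genes induced by ERK had a median of -0.17 over 17 measured genes, of which 1 passed 2-fold upward and 3 downward, against 0 and 2 with normexp correction. The early response gene IER3 differed by -1.19 ± 0.20, and the AP-1 subunits JUNB and FOSL1 by -1.15 ± 0.14 and -1.08 ± 0.19. EGR2, a zinc finger factor, was higher by 1.08 ± 0.21, its relative EGR3 by 0.84 with all 3 probes positive, and EGR1 by 0.06. The list chosen for ovarian targets of EGF-like ligands had a median of -0.01 over 7 measured genes, with 2 at least 2-fold lower. That median was the value of NRIP1, and whether these ligands induce each listed gene was not tested. The sign of this median also turned with quantile and loess normalization, with the percentile over measured probes and without the filter on dim probes. Pentraxin PTX3, which builds the matrix around the egg, differed by -3.18 ± 0.21 (9.03-fold lower), and the factor CEBPB by -1.28 ± 0.15 (2.43-fold lower). PTGS2, the inducible prostaglandin synthase, was well above background on the infant array alone, at least 4.88-fold below its infant signal on the pubertal one. TNFAIP6, a matrix protein, differed by -0.96 and the hyaluronan synthase HAS2 by 0.53, and the factor RUNX2 had the highest difference of the list at 0.90 ± 0.29. Over all 81 measured genes of these lists, 2 passed 2-fold upward (2.47%, against 7.32% of all genes) and 10 downward (12.3%, against 6.32%). With spike-in scaling the split turned round, with 32 upward (39.5%, against 45.6% of all genes) and 2 downward (2.47%, against 0.864%).

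**Figure D4:**
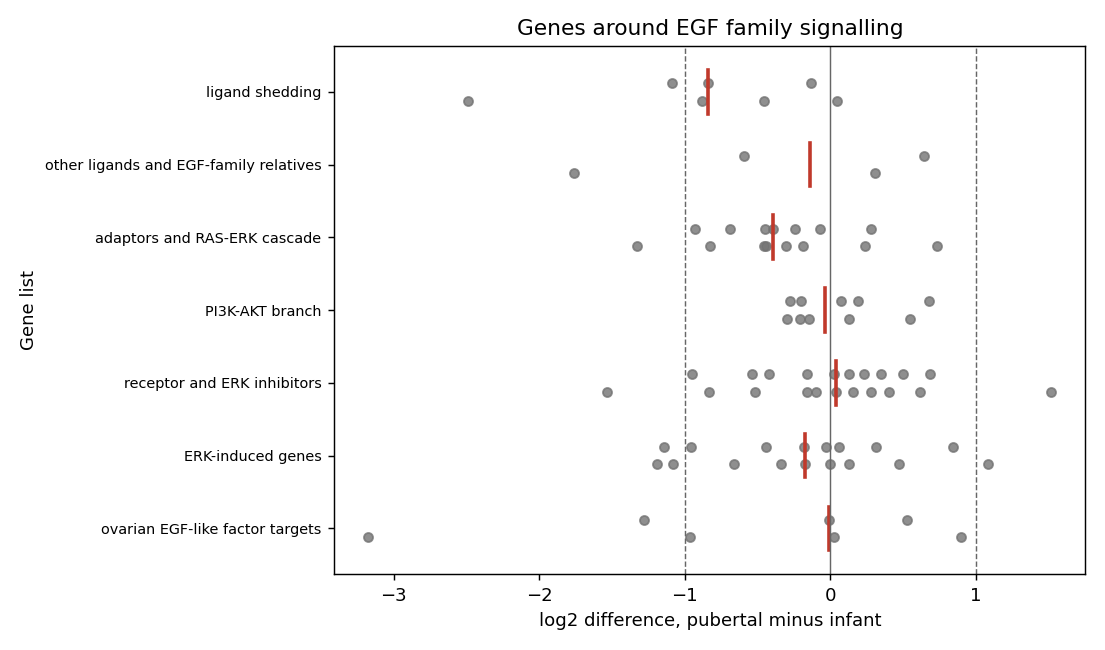
Log2 difference (pubertal minus infant) of each measured gene in the 7 pathway lists, 1 row per list; red bars are list medians and dashed lines mark 2-fold. Ligand shedding has the lowest median at -0.84, and 6 of its 7 points lie left of 0.

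Markers of several cell types differed between the arrays as well. Their counts stand beside 7.32% of all genes at least 2-fold higher and 6.32% lower. Of all probes, 3.86% were measured on the pubertal array alone. All 12 Sertoli cell markers were measured on both arrays, with a median difference of 0.35 and 3 at least 2-fold higher (AMH, DMRT1 and SOX8). The 2 SOX8 probes differed by 0.32 and 1.77, only 1 of them past 2-fold. The FSH receptor FSHR differed by 0.79 ± 0.35, on 1 probe that was dim on both arrays. The 6 germ cell markers measured on both arrays had a median of 3.43 with 5 of them 2-fold higher, and the other 4 were measured on the pubertal array alone. Myoid markers (7 measured) had a median of 1.07 with 4 at least 2-fold higher, and macrophage markers (5 of 7 measured) a median of 1.99 with 3 higher. Of these 5 macrophage markers 4 were positive, and CD68 was negative at -0.94 ± 0.37 on a dim probe. Of 6 measured Leydig cell markers 3 were at least 2-fold lower and the other 3 were positive, by at most 0.41, with a median of -0.56. The defining receptor LHCGR was measured on neither array. Fibroblast markers (5 of 6 measured) had a median of -0.53 with 1 lower, while the sixth, LUM, was measured on the pubertal array alone and was at least 6.73-fold higher there. Endothelial markers (3 of 6) had a median of 0.99 with 1 higher. Epithelial markers (5 of 7) had a median of -0.04 with 1 higher (CDH1) and 2 lower (the keratins KRT8 and KRT18). The macrophage marker AIF1 and the endothelial marker TEK were also measured on the pubertal array alone, at least 2.37- and 2.05-fold higher. Endothelial CDH5 and KDR, macrophage LYZ and epithelial KRT5 were measured on neither array. The following sums of signal hold only markers measured on both arrays, and bright probes dominate them, so they can differ less than the medians. Summed over its measured markers, the log2 level was 8.93 pubertal and 8.84 infant for Sertoli cells, 3.55 pubertal and 2.05 infant for germ cells, 7.21 pubertal and 6.41 infant for myoid cells, 2.19 pubertal and -0.06 infant for macrophages, and 5.59 pubertal and 7.25 infant for Leydig cells. For fibroblast markers it was 4.99 pubertal and 5.27 infant, for endothelial markers 0.65 pubertal and -0.42 infant, and for epithelial markers 5.56 pubertal and 6.72 infant. The infant germ cell sum lay close to the level of UTF1 alone, which was 2.13 pubertal and 1.88 infant. The part of these cell type markers in the EGF family differences was not tested.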

How the data were processed

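Per the labels, total RNA was labelled with Cy3, and per the submitters' processing notes and the file headers the arrays were read with Agilent Feature Extraction 10.5.1.1. The deposited values are spot intensity values of a human array design, detrended spatially and multiplicatively within each array, surrogates standing in for the lowest signals, per the file headers, and with no scaling between arrays recorded. Both arrays lay on 1 slide read in 1 scan. The deposited 0 or 1 flags (other) give background, saturation and outliers.

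From these, log2 of the processed intensity minus each array's 75th percentile was taken, 96 pubertal and 91 infant outlier spots were left out, and spots of a probe and then probes of a gene were averaged (Python 3.11.15). No gene spot was saturated. Well above background were 54.9% of gene spots (pubertal) and 54.8% (infant). A gene measured on 1 array has a lower bound against the dim array's lowest measured signal or its own. This bound does not include the software's error. The number of arrays limits the precision. Alternatives were normexp (limma 3.58.1, offset 50), other scalings, filters, probe rules, folds of 1.5 and 4, and leaving out disturbed areas. The calculation was tested on simulated data. Members, lists, alternatives and the rule for disturbed areas were chosen with earlier results of these data known. All members and, from each pathway list, genes past 2-fold and up to 3 with the largest differences were to be named, and up to 3 markers per cell type; others named were chosen after their values were seen. No genes of like pattern were sought, since 2 arrays give 1 difference. All 10 symbols occur in the macaque gene table.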

Additional observations from a re-analysis of the deposited data

How the results depend on the processing

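The reported counts were 2 members at least 2-fold lower, 0 higher (1 array per group, no test) and 9 measured. With normexp correction, and with a filter at the median signal, which left EGFR unmeasured, 1 member was lower. With spike-in scaling 5 members were higher and 0 lower. At 1.5-fold 1 was higher and 4 lower, and at 4-fold 0 were lower. With no filter on dim probes, or with the median of all probes, the count of 2 held EREG (-1.41) in place of EGFR (-0.98 and -0.92). Under alternatives, 78 member values moved by less than the software's error and 27 by more, and none past 2-fold changed sign. AREG ranged between -1.97 and -0.81, EGFR between -1.75 and -0.33. Over all genes, 1042 were 2-fold higher and 900 lower as reported, 553 and 568 with normexp, 2081 and 1485 with no filter, 2056 and 1484 with the median of all probes, 1710 and 1363 with a weaker detection flag, and 6495 and 123 with spike-in scaling; the cause was not tested. Dim signals limit EGFR, EREG and NRG1, whose values shrank with normexp, as did that of ERBB3 (0.23 in place of 0.51). The offset of 50 in normexp by itself makes differences of dim probes smaller. No paired analysis was possible because each group has 1 array.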
